A study of Mus musculus with 6 samples.

Results

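The lower dose of adenine was compared with no adenine in BV2, a mouse cell line made by immortalising microglia, the resident macrophages of the brain. The comparison takes 4 of the 6 arrays of the series, 2 of untreated cultures and 2 of cultures given the lower dose for 1 h, chosen by sample title alone. The remaining 2 arrays, of cultures given a higher dose for 1 h, were normalized and fitted with them and are set beside them where that helps. The titles and the treatment protocol give the doses as 20 and 80 µM, whereas the sample characteristics give 80 and 250 µM. This conflict was not resolved, so the doses are called lower and higher. The untreated cells are described as wild type, no transgene or other agent is named for any group, and the controls received no adenine. The labels state separate cultures but give no batch, slide or scan, and with 2 arrays a group the p-values rest on 3 residual degrees of freedom, to which limma adds prior ones estimated across probes. The arrays measure bulk RNA of whole cultures, so fewer cells carrying a transcript and less transcript per cell cannot be told apart.

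Adenine is a purine base. Cells take it up through nucleobase and nucleoside carriers and salvage it into AMP with adenine phosphoribosyltransferase, encoded by Aprt, so its entry touches the nucleotide pool and the enzymes that sense AMP. Microglia carry receptors for extracellular purines, and their state is commonly read from interferon-stimulated genes, from immediate early genes that respond within minutes to an hour, from inflammatory cytokines and from surface receptors.

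Over the 26423 probes of the 6 arrays the deposited medians lay between 125 and 170 units, with lower-dose array 2 the highest and control 1 the lowest. Arrays were quantile-normalized, and values below are normalized intensity in arbitrary units. Changes are log2 of the lower-dose mean minus log2 of the control mean, with the standard error of the fit. Probes whose mean log2 value over the 6 arrays exceeded that of the median probe, 142.2 units, are called brighter. They number 13211 and give 10287 named genes, each read from its brightest probe. Of the 11 measured microglia and macrophage markers, 10 were brighter, and the median change over all 11 was 0.04. Fcer1g, an Fc receptor subunit, was the marker with the smallest p (17882 and 18953 units in controls, 21493 and 22925 units at the lower dose, log2 change 0.27 ± 0.16, adjusted p = 0.649). The brain macrophage gene Aif1 read 504 and 465 units in controls, against 454 and 426 units at the lower dose. Cd68, Csf1r and Itgam overlapped between the groups, with log2 changes of 0.07 ± 0.19, -0.04 ± 0.19 and 0.06 ± 0.16. None of the 6 fibroblast markers, 1 of the 5 measured astrocyte markers and 1 of the 3 measured neuron markers were brighter. Of the 6 measured oligodendrocyte markers 5 were brighter, and of the 6 measured lymphocyte markers 3, so being brighter does not by itself mark a cell type. Of the 9 endothelial markers 6 were brighter, with summed levels of 8215 to 8547 units in controls and 9400 to 9428 units at the lower dose; its part in the results below was not tested. Control 1 and lower-dose 1 shared low values, with 64 brighter genes at least 2-fold below the second array of their group in both, so values per array are given throughout.

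Foxj1 rose at the lower dose in the fit to all 26423 probes. It encodes a forkhead transcription factor known for switching on the genes of motile cilia. Its probe read 92 and 72 units in the controls, both under the median probe, and 1453 and 1422 units at the lower dose. The groups are far apart on both arrays, and the higher-dose arrays lay above them, at 3807 and 3016 units. The mean ratio was 17.7, a log2 change of 4.14 ± 0.21 (limma, adjusted p = 0.0444 over all probes). That call was lost under 10 of 14 alternatives, with an adjusted p of up to 0.337, while the log2 change stayed between 3.90 and 4.41. In the fit to brighter probes Foxj1 was the 1 call of 13211 (0.00757% called), but it belongs to that set only through the dosed arrays, so its p there is not used as support. The number of brighter calls grew when an array was left out, to 80 and 73 without higher-dose 1 or 2, to 34 without control 2 and to between 3 and 6 without each of the other 3. The higher dose stood above the lower by a further log2 difference of 1.24 ± 0.21 (limma, adjusted p = 0.0264 over all probes). A single probe carries the name.

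The fit to all probes called 3 of 26423 (0.0114% called), Foxj1 and 2 dim probes. Rtl3, a retrotransposon-derived gene, read 137 and 139 units in controls, against 1.67 and 1 units at the lower dose, where 1 is the floor set before taking logs. At the higher dose it read 91.2 and 116 units, so the low values are on the lower-dose arrays alone. Its log2 change of -6.74 ± 0.29 (limma, adjusted p = 0.0444) became -3.21 when 16 was added in place of the floor. Ankrd61, which encodes an ankyrin repeat protein, was at the floor on both control arrays and read 80 and 55 units at the lower dose and 66.8 and 112 units at the higher dose. Its log2 change was 6.05 ± 0.32 (limma, adjusted p = 0.0444) with the floor and 2.60 with 16 added. Under the settings that left out 1 array, neither gene kept an adjusted p under 0.05, and without control 1 there were 9 calls in all.

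**Figure D1:**
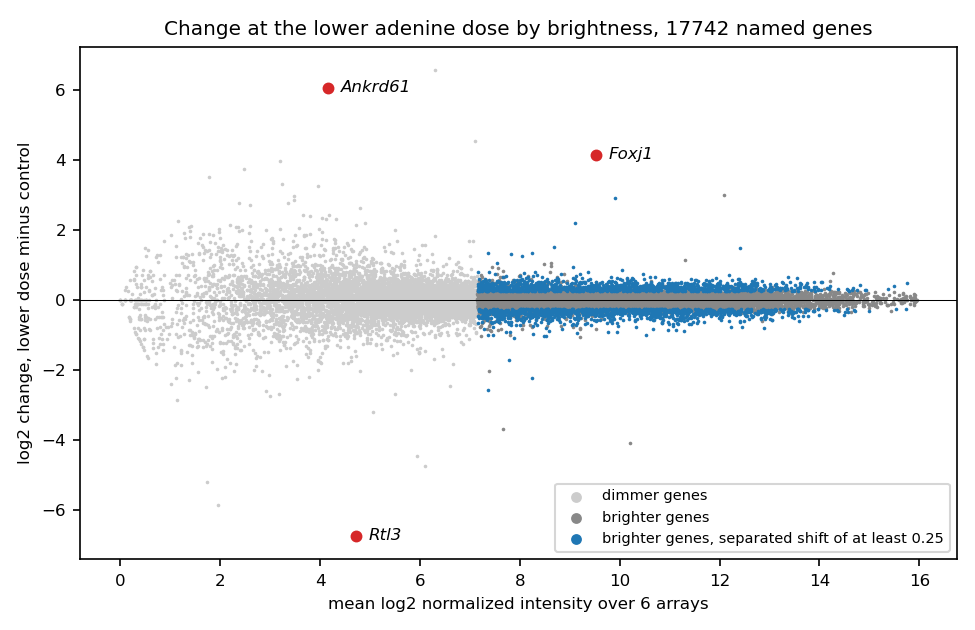
Each point is a named gene, with its mean log2 normalized intensity over 6 arrays on the x axis and its log2 change at the lower dose on the y axis. Foxj1 stands at 4.14 among brighter genes, and Rtl3 and Ankrd61 stand at -6.74 and 6.05 among dim ones. Blue points are brighter genes whose 2 lower-dose arrays both lay above or both below the 2 controls, by at least 0.25 in the mean.

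Beyond Foxj1 the shifts of brighter genes were small, and the arrays of a group differed about as much as the groups did. The standard deviation of the change over 10287 genes was 0.257. Control 2 minus control 1 had a standard deviation of 0.338 and lower-dose 2 minus lower-dose 1 of 0.362. Carried to a difference of 2-array means, those replicate differences give 0.247, or 0.202 by a robust estimate against 0.226 for the change itself. For the higher dose the change had a standard deviation of 0.670, against 0.219 from its replicate differences. Across the 13211 brighter probes, the difference of lower-dose 1 from control 1 and that of lower-dose 2 from control 2 correlated with Pearson r of 0.042, and 0.00887 with the controls exchanged. The same figures for the higher dose were 0.853 and 0.738. These are correlations across probes, which are not independent replicates, and they carry no p.

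**Figure D2:**
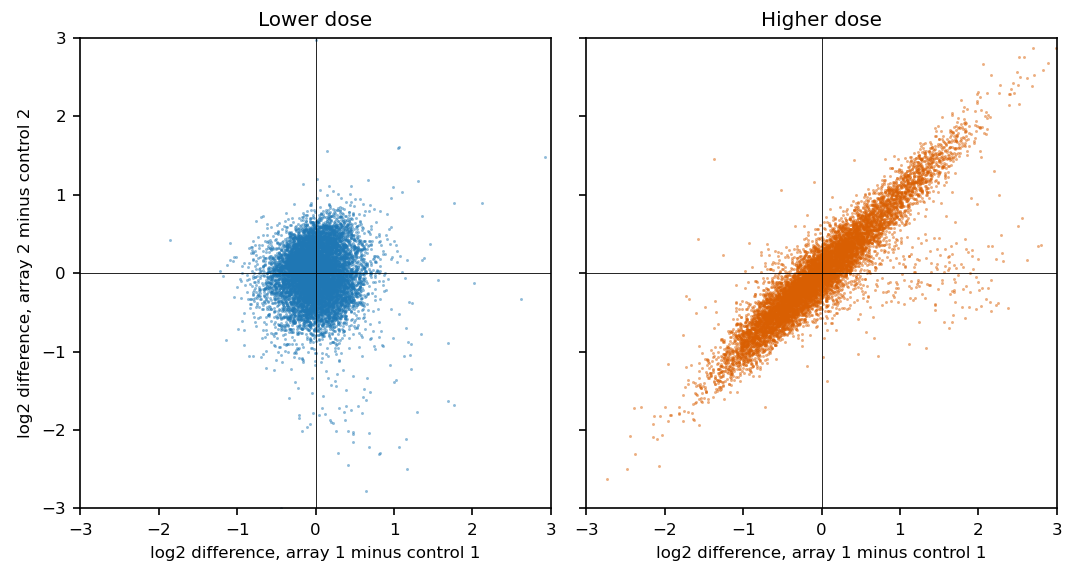
For 10287 brighter named genes, the log2 difference of array 1 from control 1 (x axis) is plotted against that of array 2 from control 2 (y axis), for the lower dose on the left and the higher dose on the right. The lower-dose cloud is round and the higher-dose cloud is drawn out along the diagonal. In all, 24 points lie outside the axes at 3.

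A shift is called separated here where both lower-dose arrays lay on the same side of both controls and the means differed by at least 0.25. By this rule 1161 brighter named genes were higher (11.3% called) and 1044 lower (10.1% called) at the lower dose. Separation at any size was seen in 19% of genes upward and 16.6% downward, 35.6% in all. The split between directions depends on scaling. Without normalization it was 3220 higher and 222 lower, where the median of all named genes moved by 0.22, and with arrays scaled to equal medians it was 721 higher and 1568 lower. Among the 402 genes with a change of at least 0.5, 134 were separated upward, 186 downward and 82 overlapped. Among the 27 genes with a change of at least 1, the numbers were 10, 7 and 10. At an unadjusted p under 0.05, 1127 brighter probes (8.53% called) were counted, 576 higher and 551 lower, and the smallest adjusted p after Foxj1 was 0.468. Over all probes the number was 1681 (6.36% called). The share of separated genes was similar across 5 equal bins of brightness, from 10.2% to 12.5% upward and from 8.7% to 11.6% downward. Separated lower genes had a median gene span of 15.6 kb, against 23.8 kb for separated higher genes and 21.5 kb for all brighter genes.

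The named genes below other than Foxj1 did not pass the adjusted threshold at this dose in the fits to all or to brighter probes, so their values are given as measured. Slfn2, an interferon-inducible growth regulator of immune cells, read 2037 and 2328 units in controls, against 1276 and 1137 units at the lower dose. The log2 change was -0.85 ± 0.17, and the higher-dose arrays stood above the controls at 3037 and 3202 units. Cmpk2, a mitochondrial nucleotide kinase, read 2268 and 1736 units against 1028 and 962 units (-0.996 ± 0.18). Tfeb, a transcription factor that drives lysosomal genes, had close replicates, 372 and 382 units in controls, against 232 and 215 units at the lower dose (-0.76 ± 0.16). Cxcr4, the receptor for the chemokine CXCL12, read 2293 and 1941 units against 1217 and 1169.8 units (-0.82 ± 0.17). These 4 genes were picked by p among genes whose lower-dose and control arrays do not overlap, so their separation is not used as support. Each had an adjusted p of 0.468 in limma's fit to brighter probes.

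Tgfb1, an anti-inflammatory cytokine, and Rtp4, an interferon-induced chaperone of receptors, lay below the controls at the lower dose and above them at the higher. Tgfb1 read 757 and 899.7 units in controls, 489.7 and 390.4 units at the lower dose and 1621 and 2118 units at the higher. The log2 change was -0.92 ± 0.20 at the lower dose and 1.17 ± 0.22 at the higher (limma, adjusted p = 0.468 and 0.0386). For Rtp4 the controls were 1805 and 2295 units, the lower dose 1246 and 975 units and the higher dose 6313 and 7637 units, and its 2 changes were -0.88 ± 0.20 and 1.77 ± 0.22. The second probe of Rtp4 had the same sign at the lower dose, with -0.40. The direct difference between the doses was 2.08 ± 0.22 for Tgfb1 and 2.65 ± 0.22 for Rtp4 (limma, adjusted p = 0.0180 for each; 13.7% of all probes called). Vps52, a tethering subunit of retrograde transport, was low at both doses, with 361 and 330.2 units in controls, 208 and 159 units at the lower dose and 182 and 179 units at the higher. Chst12, Arrb2, Ccnt1, Ube2d1 and Klf2 complete the 12 lower genes of smallest p among those with non-overlapping arrays. Their changes were -0.73 to -0.95, with adjusted p of 0.468 to 0.499 in limma's fit to brighter probes.

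The 12 higher genes with the smallest p include Foxj1 and C130026I21Rik. Both are in the brighter set only through the dosed arrays, so their rank is not used as support. Spink5, a serine protease inhibitor, read 347 and 329 units in controls, against 562 and 603 units at the lower dose (0.79 ± 0.17, limma, adjusted p = 0.468), and 175 and 146 units at the higher. Snhg3, a host gene of small nucleolar RNAs, was ordered by dose, with 6495 and 7508 units in controls, 10575 and 11410.2 units at the lower dose and 15807 and 15352 units at the higher. Its change at the lower dose was 0.65 ± 0.16 and at the higher 1.16 ± 0.16. Ifi27l2a, an interferon-inducible gene, followed the same order, at 2133 and 1831 units, then 2880.2 and 3681 units, then 16763 and 15089 units. Its lower-dose change was 0.72 ± 0.18. Rps6ka6, Depdc1a, 2900060B14Rik and Camk1g had changes of 0.73 to 0.78. Odf4, Scrg1, C130026I21Rik and Ocm had larger changes, 1.32 to 2.20, and larger errors, 0.28 to 0.46. In Ocm, which encodes the calcium-binding protein oncomodulin, control 1 read 117 units and control 2 read 457 units, against 885 and 1273 units at the lower dose.

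**Figure D3:**
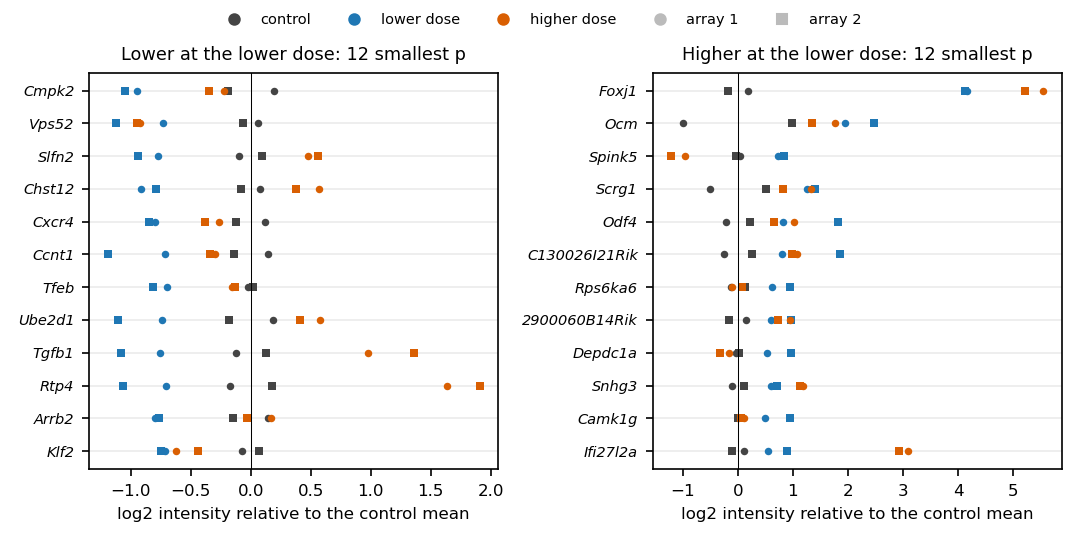
Log2 intensity relative to the control mean (x axis) is shown on each of 6 arrays for the 12 lower and the 12 higher brighter genes with the smallest p and non-overlapping arrays. Circles are arrays numbered 1 and squares arrays numbered 2. Tgfb1 and Rtp4 lie below 0 at the lower dose and above 0 at the higher. Foxj1, C130026I21Rik, Rps6ka6 and Odf4 are in the brighter set only through the dosed arrays. Foxj1 lies furthest from the controls at both doses.

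Several of the largest changes among separated brighter genes rested on 1 array. Acta2, smooth muscle actin, read 284 and 289 units in controls, against 206 and 11.2 units at the lower dose, so its log2 change of -2.58 ± 0.91 comes from lower-dose array 2. Hp, the haemoglobin-binding protein haptoglobin, had the same shape, with 379.7 and 392 units against 322 and 21.3 units (-2.22 ± 0.84). Fam102a read 39.3 units in control 1 and 1533 units in control 2, with 1805 and 1902 units at the lower dose (2.92 ± 1.12). Dnaja3, a mitochondrial co-chaperone, read 1446 units in control 2 and 10147 to 11375 units in the other 3 of these 4 arrays, and its 2 other probes gave 0.06 and 0.04. The adjusted p of these 4 genes was 0.532 to 0.539 in limma's fit to brighter probes.

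When only the upper quartile of brightness was fitted, 33 of 6606 probes passed (0.5% called), 11 higher and 22 lower. The prior degrees of freedom were 110 in that fit, 8.36 for brighter probes and 2.2 for all probes. Foxj1 was not bright enough to be tested there. Of the 33, 27 were named and 28 were separated, and 0 were called in all 6 fits that each left out 1 array, while 9 were called in none. Slfn2, Cmpk2, Cxcr4, Chst12, Arrb2, Ube2d1, Tgfb1, Rtp4 and Zfp36 were among the lower calls and Depdc1a and Ifi27l2a among the higher. Both Depdc1a and Ifi27l2a belong to the probes called in none of the fits that left out 1 array. The 5 named calls of smallest p each rest on 1 array. These are Fam102a and Dnaja3, described above, Nudt19, with 3834 and 5 units in controls, Eif4g1, with 136 and 9306 units in controls, and Atp13a3, with 9.8 and 2928 units at the lower dose.

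Interferon-stimulated genes, which cells induce to restrict viruses, were low more often than the background at the lower dose. Of 31 brighter members, 14 were separated lower (45.2%, against 10.1% of all brighter genes) and 2 higher (6.45%, against 11.3%). In limma's fit 0 of all 39 measured members passed the adjusted threshold, with 8 lower and 1 higher at an unadjusted p under 0.05. Of all named genes, 462 were lower and 555 higher at that p. Among the 39 members 25 had a negative change, and their median was -0.18 against 0.00 for all named genes. The median was -0.18 with arrays scaled to equal medians and 0.07 without normalization, where it stood at -0.15 relative to the median of all genes. It was -0.12 without control 2. The mean over brighter members, relative to the control mean, was -0.23 and -0.14 on the lower-dose arrays and -0.04 and 0.04 on the controls. With the 8 dim members included, lower-dose 2 came to 0.02, within the control range of -0.08 to 0.08. Among the dim members Rsad2 read 1091 and 1 units in controls, against 1 and 614 units at the lower dose.

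Irf9, the DNA-binding subunit of the interferon-activated factor, had close replicates, 2192 and 2171 units in controls, against 1589.9 and 1477 units at the lower dose (-0.51 ± 0.16, limma, adjusted p = 0.519). Oas2, a sensor that activates RNase L, read 1686 and 1863 units against 1241 and 1240.3 units (-0.51 ± 0.16). Both lower-dose arrays lay below both controls in each. The family members Oasl1, Oasl2 and Oas3 had changes of -0.63, -0.61 and -0.52. Cxcl10, a chemokine for T cells, read 149 and 186 units in controls, 109 and 97 units at the lower dose and 525 and 728 units at the higher. Irf7, a master factor of type I interferon, read 1758 and 2575 units, then 1289 and 1554 units, then 5708 and 6268 units. Isg15, a ubiquitin-like modifier, read 335 and 334 units, then 302 and 246 units, then 2749 and 2517 units. The doses therefore lie on opposite sides of the controls for these 3 genes, and the median of the list was 0.54 at the higher dose, with 13 of 39 members called (10.6% of all probes called). The 2 brighter members separated higher at the lower dose were Ifi27l2a and the immunoproteasome subunit Psmb8, with 0.72 and 0.28. In all, 14 of the 39 measured members had a positive change, among them Ifih1 (0.39, overlapping) and Eif2ak2 (0.22).

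The windows from 250 bases before to 50 after the start site (RefSeq, GRCm38.p6) were searched on both strands for the core of the interferon-stimulated response element, which the interferon-activated factor binds. It was found in 14 of the 29 listed genes with a window (48.3%), against 3.63% of the 13980 measured genes with a window and 3.99% of all 27025 in the table. It was present in 5 of 11 separated lower members (45.5%) and in 9 of 18 others (50%), so the share was close in both sets. The 250 bases before the start are shown for the 2 separated lower members of smallest p that hold it, with the match in capitals, which reads as its reverse complement here. Neither match overlaps another motif searched.
Cxcl10, chr5:92348890-92349139, minus strand: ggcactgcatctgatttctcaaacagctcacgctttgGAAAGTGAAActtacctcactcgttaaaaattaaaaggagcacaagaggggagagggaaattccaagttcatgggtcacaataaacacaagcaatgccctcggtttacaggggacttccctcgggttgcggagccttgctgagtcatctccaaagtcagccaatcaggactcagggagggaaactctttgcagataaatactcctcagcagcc
Oas3, chr5:120777660-120777909, minus strand: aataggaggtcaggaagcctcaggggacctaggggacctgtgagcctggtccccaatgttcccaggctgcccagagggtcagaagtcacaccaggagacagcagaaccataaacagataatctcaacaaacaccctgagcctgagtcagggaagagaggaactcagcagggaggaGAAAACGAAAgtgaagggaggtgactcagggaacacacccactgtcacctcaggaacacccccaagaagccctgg

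Immediate early genes, whose transcription answers a stimulus without new protein synthesis, also lay low. Of 36 brighter members 12 were separated lower (33.3%, against 10.1%) and 0 higher (against 11.3%). In limma's fit 0 of all 41 measured members passed the adjusted threshold, with 7 lower and 0 higher at an unadjusted p under 0.05. Of all named genes, 462 were lower and 555 higher at that p. Among the 41 members 31 had a negative change, with a median of -0.16. That median was -0.24 with equal medians and 0.01 without normalization, -0.20 relative to all genes there, and -0.27 without lower-dose 2. The mean of brighter members was -0.24 and -0.18 on the lower-dose arrays, against -0.05 and 0.05 on the controls. Klf2, a factor that restrains inflammatory genes in macrophages, read 329.5 and 362 units in controls, against 211 and 206 units at the lower dose (-0.73 ± 0.16, limma, adjusted p = 0.499). Nr4a1, an orphan nuclear receptor, was ordered by dose, with 4104 and 5172 units, then 3111 and 2759 units, then 1961 and 2070.2 units (-0.65 ± 0.18 and -1.19 ± 0.18). Zfp36, which encodes an RNA-binding protein that destabilises cytokine messages, read 1756 and 2249 units, then 1295 and 1089 units, then 3840.0 and 4626 units. Fos, part of the AP-1 factor, read 14616 and 17727 units in controls, against 11492 and 11787 units at the lower dose (-0.47 ± 0.17). Ier2 read 17706 and 14797 units against 11779.7 and 11845 units (-0.45 ± 0.17), and its second probe gave -0.62. Jun, the partner of Fos, overlapped, with 1189 and 1116 units against 966 and 1384 units. Egr1 was dim on every array, at 22.2 to 41.8 units.

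A CArG box, the site of serum response factor, was found in 4 of 31 listed immediate early genes with a window (12.9%, against 1.61% of measured genes). The 4 were Zfp36, Dusp5, Egr2 and Srf, with changes of -0.74, -0.64, -0.43 and -0.08, of which the first 3 were separated lower. The box was thus present in 3 of 9 separated lower members with a window (33.3%) and in 1 of 22 others (4.55%). The cyclic AMP element TGACGTCA was found in 4 of 31 (12.9%, against 2.82%), namely Maff, Plk2, Btg2 and Dusp1, all with changes between -0.01 and 0.04. It was in 0 of the 9 separated lower members and in 4 of the 22 others. These counts are small, and a link between motif and change was not tested. The upstream bases of the 2 separated lower members of smallest p that hold either motif are shown with CArG boxes in capitals. Zfp36 has 1, and Dusp5, which encodes a phosphatase of ERK, has 2 adjoining ones.
Zfp36, chr7:28379229-28379478, minus strand: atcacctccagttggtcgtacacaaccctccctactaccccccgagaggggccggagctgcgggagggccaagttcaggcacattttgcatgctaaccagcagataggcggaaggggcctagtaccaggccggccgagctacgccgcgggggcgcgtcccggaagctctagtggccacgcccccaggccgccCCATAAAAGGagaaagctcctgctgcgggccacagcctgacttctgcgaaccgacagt
Dusp5, chr19:53528895-53529144, plus strand: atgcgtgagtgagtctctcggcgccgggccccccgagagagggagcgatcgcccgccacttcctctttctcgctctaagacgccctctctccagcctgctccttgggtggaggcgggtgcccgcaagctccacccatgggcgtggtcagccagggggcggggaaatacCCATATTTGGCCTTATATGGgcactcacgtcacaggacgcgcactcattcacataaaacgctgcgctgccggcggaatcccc

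The cAMP and CREB-responsive list shares Fos, Nr4a1 and others with the immediate early list. Of its 18 brighter members 6 were separated lower (33.3%, against 10.1% of all brighter genes) and 1 higher (5.56%, against 11.3%). Among its other members, Crtc2, a coactivator of CREB, read 989 and 802 units against 770.3 and 617 units (-0.37 ± 0.18), and Pde4a, a phosphodiesterase, had -0.36 ± 0.18. The median over 22 measured members was -0.09, and 0.15 without normalization.

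**Figure D4:**
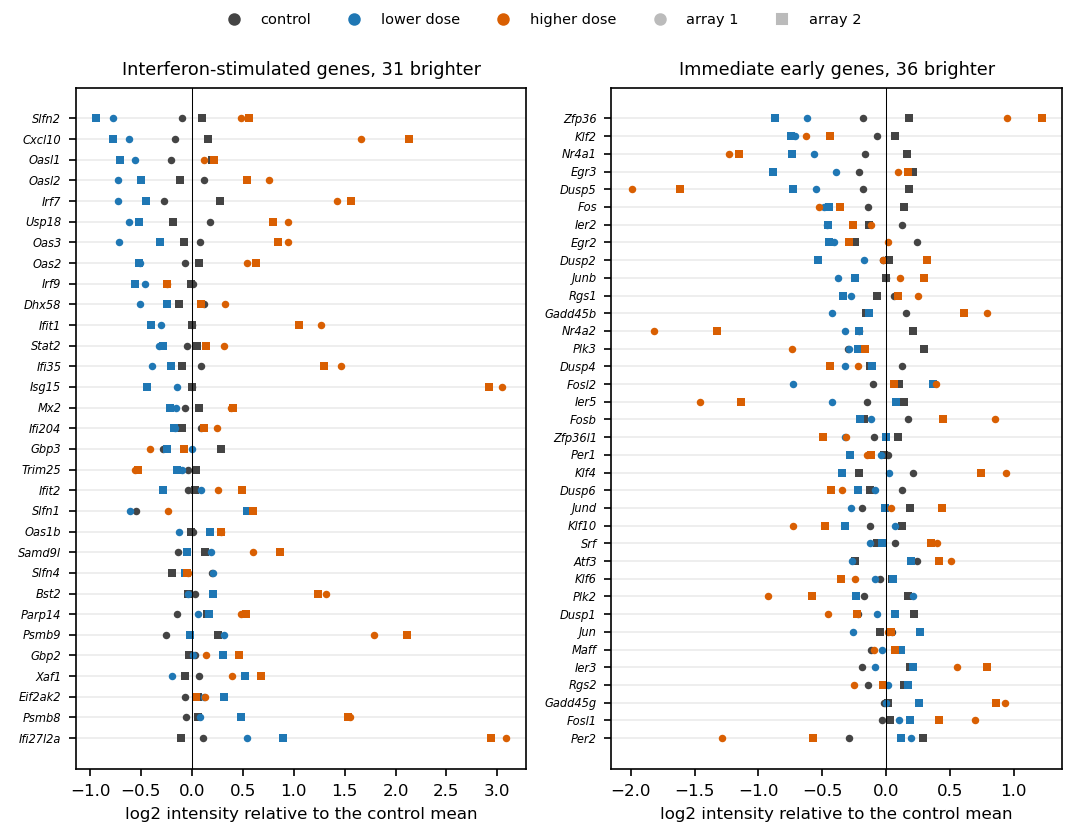
Log2 intensity relative to the control mean (x axis) on each of 6 arrays is shown for 31 brighter interferon-stimulated genes (left) and 36 brighter immediate early genes (right), ordered by change at the lower dose. Circles are arrays numbered 1 and squares arrays numbered 2. The upper rows have both lower-dose arrays left of both controls, while the higher-dose arrays lie right of them for Cxcl10, Irf7 and Isg15 and left of them for Nr4a1 and Dusp5.

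Subunits of oxidative phosphorylation leaned the other way. Of 52 brighter members 15 were separated higher (28.8%, against 11.3%) and 0 lower (against 10.1%). In limma's fit 0 of 55 measured members passed the adjusted threshold, with 4 higher and 0 lower at an unadjusted p under 0.05. Of all named genes, 555 were higher and 462 lower at that p. Among the 55 members 39 had a positive change, and their median was 0.19. The median was 0.34 without normalization, 0.12 relative to all genes there, 0.08 with equal medians and 0.12 without control 1. The mean of brighter members was 0.14 and 0.17 on the lower-dose arrays, against -0.02 and 0.02 on the controls. At the higher dose the median was 1.08 and 37 of 55 were called (10.6% of all probes called). Atp5e, a subunit of the ATP synthase, read 3561 and 4287 units in controls, 5708 and 6143 units at the lower dose and 12850 and 12677 units at the higher (0.60 ± 0.17 and 1.71 ± 0.17). Atp5j2, of the same complex, read 2856 and 3560.3 units against 4284 and 5478 units (0.60 ± 0.19). Ndufa1, an accessory subunit of complex I, read 4284 and 4508 units against 5553 and 6777 units (0.48 ± 0.17). In these 3 genes no lower-dose array overlapped a control. The catalytic subunit Sdha of complex II had -0.11 ± 0.18. Cytosolic ribosomal proteins, whose median was 0.91 at the higher dose, had 0.05 at the lower. Of their 34 brighter members 4 were separated higher (11.8%, against 11.3%) and 3 lower (8.82%, against 10.1%).

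Cell cycle genes also leaned upward. Of 38 brighter members 10 were separated higher (26.3%, against 11.3%) and 3 lower (7.89%, against 10.1%), and 29 of 42 measured had a positive change. In limma's fit, 555 of all named genes were higher and 462 lower at an unadjusted p under 0.05. Of the 42 cell cycle genes 2 were higher and 0 lower at that p, and 0 passed the adjusted threshold. These 2 genes are not used as support for the upward lean of the list. The median was 0.16, or 0.29 without normalization, 0.08 relative to all genes there, 0.04 with equal medians, 0.10 without control 2 and 0.07 when all probes of a gene were averaged. At the higher dose it was -0.45. Cdc25b, a phosphatase that triggers entry into mitosis, read 1236 and 1343 units in controls, against 1689.5 and 1917 units at the lower dose (0.48 ± 0.16, limma, adjusted p = 0.532). Ccna2, cyclin A2, read 10284 and 11149.5 units, then 12856 and 14783 units, then 5192 and 5140.3 units at the higher dose. The mean over brighter members was 0.08 and 0.11 on the lower-dose arrays, against 0.01 and -0.01 on the controls. The 3 separated lower members were Cdkn1a, an inhibitor of cyclin-dependent kinases, Ccnb2 and Mcm5, with -0.31, -0.31 and -0.27.

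Small GTPase and actin regulators had 9 of 32 brighter members separated lower (28.1%, against 10.1% of all brighter genes) and 3 higher (9.38%, against 11.3%). Their median was -0.07. Evl, which promotes actin filament growth, read 509.5 and 473 units in controls, 368 and 247 units at the lower dose and 1211 and 1156 units at the higher. Dock2, an exchange factor for Rac, read 4265 and 3938 units against 3048 and 3161 units (-0.40 ± 0.16), and its second probe gave -0.27. Rock1, a kinase downstream of RhoA, went the other way, with 3535 and 3680.3 units against 4622 and 5598 units (0.50 ± 0.17), and its second probe gave 0.49. Of 27 brighter microglia and macrophage identity genes 6 were separated lower (22.2%, against 10.1%) and 1 higher (3.7%, against 11.3%), with a median of -0.10 over 33 measured. Cebpa, a myeloid transcription factor, had 914 and 1202 units against 753 and 591 units (-0.65 ± 0.21). The complement genes C1qa, C1qb and C1qc had -0.34, -0.44 and -0.35 at the lower dose and 2.79, 2.62 and 2.54 at the higher. Without normalization the medians of the GTPase and identity lists were 0.09 and 0.07.

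Of 46 brighter lysosome and autophagy genes 7 were separated lower (15.2%, against 10.1% of all brighter genes) and 3 higher (6.52%, against 11.3%). The list had no common direction, with a median of 0.01 against 0.00 for all named genes. The 7 separated lower genes hold Tfeb and Tfe3, related factors of lysosome formation. They also hold the protective protein gene Ctsa, which read 714 and 632 units against 463 and 468 units (-0.53 ± 0.16). Atg12, an autophagy conjugation protein, read 2071 and 2308 units against 3128 and 2865 units (0.45 ± 0.16). The AMPK and mTOR list had 5 of 26 separated higher (19.2%, against 11.3%) and 2 lower (7.69%, against 10.1%). Rptor, the scaffold of mTORC1, read 4191 and 3787 units against 5018 and 5486 units. Inhibitors of mTORC1 went both ways. Sesn2 and Akt1s1 had -0.56 and -0.58, whereas Tsc2 and Deptor had 0.26 and 0.65, Deptor with overlapping arrays. The antigen presentation list held both directions, with 3 of 15 higher (20%, against 11.3%) and 2 lower (13.3%, against 10.1%). Its class II chaperone Cd74 read 7985 and 8114 units against 5159 and 6455 units (-0.48 ± 0.17), and its 2 other probes gave -0.61 and -1.06.

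**Figure D5:**
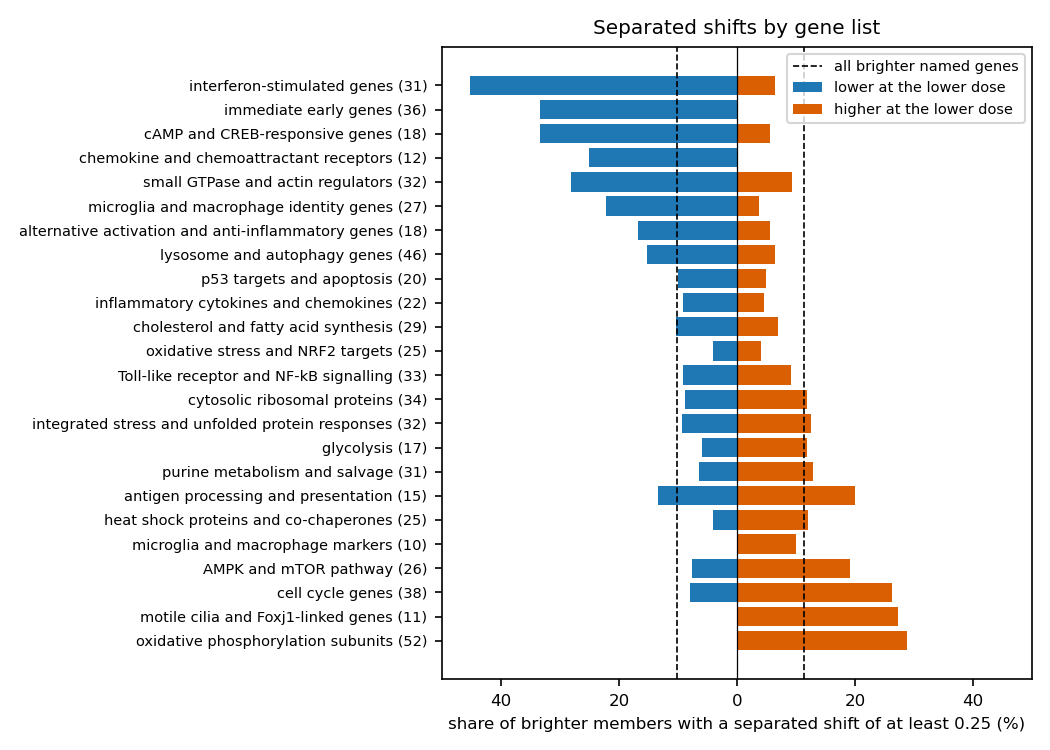
Bars give the share of brighter members (number in brackets) with a separated shift of at least 0.25, lower to the left and higher to the right, for the 24 lists with at least 10 brighter members. Dashed lines mark all brighter named genes, 10.1% lower and 11.3% higher. Interferon-stimulated genes reach 45.2% lower, and oxidative phosphorylation subunits reach 28.8% higher.

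Genes of purine metabolism and salvage showed no common direction. The median over 35 measured was -0.00. Of 31 brighter members 4 were separated higher (12.9%, against 11.3% of all brighter genes) and 2 lower (6.45%, against 10.1%), close to the background. Aprt itself read 15364 and 13893 units in controls, against 16546 and 12796 units at the lower dose (-0.01 ± 0.18), so the groups overlapped. At the higher dose it read 27961 and 29190 units. Hprt, which salvages hypoxanthine and guanine, overlapped too (-0.04 ± 0.17). Ak4, a mitochondrial adenylate kinase, read 4749.8 and 5637 units against 8354 and 7415 units (0.60 ± 0.17), and its other 2 probes gave 0.20 and, at a dim level, -0.57. Ppat, the first enzyme of purine synthesis, read 2546 and 2543 units against 3358 and 3237 units (0.37 ± 0.16). Prpsap1, a regulator of the enzyme that makes phosphoribosyl pyrophosphate, read 6178 and 5864 units against 4899 and 4186 units (-0.41 ± 0.17). Of 10 measured purine transporters and purinergic receptors 8 had a negative change, with a median of -0.18, or 0.02 without normalization. The ATP-gated channel P2rx4 read 4151 and 3729 units against 2915 and 3420.2 units, and the nucleoside carrier Slc29a2 read 718 and 697 units against 640.0 and 509 units. The adenosine receptor Adora3 was dim, at 36.7 to 61.3 units in these 4 arrays.

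Inflammatory cytokines and chemokines did not stand out at the lower dose. Of 22 brighter members 2 were separated lower (9.09%, against 10.1% of all brighter genes) and 1 higher (4.55%, against 11.3%). The median over 32 measured was -0.06, or 0.15 without normalization. Tnf read 700.2 and 873 units in controls, against 852 and 509 units at the lower dose, and Il1b read 559 and 538 units against 506 and 489.7 units. Ccl2, which recruits monocytes, read 7338 and 9112 units against 6919 and 9529 units, but 29080.3 and 33517 units at the higher dose. Ptgs2, the inducible cyclooxygenase, and Nfkbia, the NF-kB inhibitor, overlapped with the controls (0.15 ± 0.20 and 0.08 ± 0.17). Il6 was dim, with 41.8 and 22.8 units against 53.8 and 71 units. The actin gene Actb, often used as a reference, was near the top of the scale on all 6 arrays, at 55329.8 to 65485 units.

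The motile cilia list, from which Foxj1 is the 1 called member, did not follow it as a whole. Of 34 measured genes 11 were brighter, among them Foxj1, which is there only through the dosed arrays. Of the 11, 3 were separated higher (27.3%, against 11.3% of all brighter genes) and 0 lower (against 10.1%). Foxj1 is 1 of these 3, so its separation is not used as support. The median over all 34 was 0.02. Besides Foxj1 the separated ones were Dnaaf3, a dynein assembly factor, with 224 and 201 units against 282 and 304 units, and Ccdc40, a ruler protein of the axoneme, with 299 and 279 units against 363 and 443 units. Their changes were 0.46 ± 0.17 and 0.47 ± 0.17 (limma, adjusted p = 0.535 for each). Mcidas, a coregulator of multiciliated cells, was dim, with 37.2 and 47.3 units against 25.2 and 20.7 units. Dnah11, an axonemal dynein, was dim as well, with 39.3 and 60.7 units against 82.8 and 108 units, and 28.3 and 29.7 units at the higher dose. Rfx2 and Rfx3, factors that act with Foxj1 on cilia genes, had 0.02 ± 0.19 and 0.07 ± 0.17.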

How the data were processed

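RNA of 6 BV2 cultures was labelled with Cy5 and hybridised to 1-colour mouse OneArray microarrays, per the labels. The deposited values are spot intensity, whole numbers from -21 to 65489 on a linear scale. The submitters' processing notes name RMA, but the intensity values deposited are linear with unequal medians, and no earlier normalization was assumed. Per array, 196 to 315 probes were below 1 and 10 to 39 reached 65000.

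Arrays were quantile-normalized together, floored at 1 and log2 transformed. limma 3.58.1 in R 4.3.3 fitted 1 mean per group over all 6 arrays (two-sided, Benjamini-Hochberg, threshold 0.05), once on all probes and once on brighter probes, whose errors and adjusted p are given for the lower-dose change of brighter genes. Foxj1, dim genes, higher-dose changes and differences between doses have those of the fit to all probes. The code was tested on simulated data with known changes. With 2 arrays a group, array number limits the precision. The array annotation names 20377 of 26423 probes; symbols were updated through RefSeq (18213 exact, 2126 synonym, 38 kept), giving 17742 genes, and 6046 probes are unnamed.

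The comparison, gene lists and named-gene rule were chosen with earlier results of these data known. The rule took every called probe, the 12 smallest p and 8 largest changes per direction among separated brighter genes, up to 3 members per list and a preset list of genes. Other genes (for example Oasl1, Oasl2, Dusp5, C1qa, Tfe3, Crtc2, Dnaaf3, and Nudt19, Eif4g1 and Atp13a3) were named after their values were seen. Figures used Python 3.11.15 and matplotlib 3.10.9.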

Additional observations from a re-analysis of the deposited data

How the results depend on the processing

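The count of called probes over all probes, 3, became 0 with equal medians, with the control and lower-dose arrays alone, with the replicate block and with array weights, 1 with probes above the lower quartile, and 0 to 9 with 1 array left out. The brighter-probe count, 1, became 10 without normalization, 45 with the 4 arrays alone, 33 in the upper quartile and 3 to 80 with 1 array left out, and stayed 1 with the replicate block. The titles give only a number, and whether same-numbered arrays are paired cannot be told. Same-numbered deviations correlated at 0.0326 for control and lower dose, 0.313 for control and higher dose and -0.226 for the doses. Separated shifts, 1161 higher and 1044 lower, became 3220 and 222 without normalization, 721 and 1568 with equal medians, 610 and 538 in the upper quartile, 134 and 186 at a change of at least 0.5, and 1324 to 2193 and 1299 to 2247 with 1 array left out, where fewer arrays have to separate. The medians without normalization were 0.069 for interferon-stimulated genes, 0.015 for immediate early genes, 0.29 for cell cycle genes (0.079 relative to all genes) and 0.34 for oxidative phosphorylation subunits. With equal medians the last 3 were -0.24, 0.041 and 0.084, and with all probes averaged the cell cycle median was 0.074. With 1 array left out these 4 medians ran from -0.21 to -0.12, -0.27 to -0.13, 0.10 to 0.15 and 0.12 to 0.20.

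Small changes of some genes took the other sign, in no case past the threshold. Without normalization these were Il1b (0.048), Aif1 (0.054), Hprt (0.025), Csf1r (0.11), Actb (0.034), Ccl2 (0.14) and Aprt (0.12). With equal medians they were Nfkbia (-0.0094), Itgam (-0.025), Cd68 (-0.093) and Jun (-0.096). With cyclic loess they were Csf1r (0.015), Ccl2 (0.049), Aprt (0.035) and Jun (-0.012). With 1 array left out, the range crossed 0 for Tnf (-0.62 to 0.12), Ptgs2 (-0.11 to 0.41), Nfkbia (-0.064 to 0.23), Itgam (-0.047 to 0.16), Cd68 (-0.061 to 0.19), Hprt (-0.17 to 0.081), Csf1r (-0.28 to 0.20), Actb (-0.049 to 0.025), Ccl2 (-0.24 to 0.22), Aprt (-0.19 to 0.18) and Jun (-0.26 to 0.26).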

Other observations

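Control 1 and lower-dose 1 shared a set of low values. Of 10287 brighter named genes, 126 were lower in control 1 than in control 2 by at least 1 on the log2 scale, and 6 were lower in control 2. Among those 126, 64 were also lower in lower-dose 1 than in lower-dose 2 by at least 1 (50.8% of the 126 and 63.4% of the 101 such genes at the lower dose), where 0.982% of all brighter genes met that condition. Only 5 of the 126 were lower in lower-dose 2. The higher-dose arrays differed little for the 126, with a median of -0.198 for array 2 minus array 1. Shroom1, an actin-binding protein gene, read 118 and 582 units in controls, 306 and 664 units at the lower dose and 559.8 and 449 units at the higher. Cplx3, which encodes a complexin, read 52.3 and 261 units, then 102 and 295 units, then 215 and 196 units. Mtss2 was brighter, with 1019 and 2365 units, then 1162 and 2581 units, then 2552 and 1903 units. The genes are mostly modest in level, with a median of 230.6 units. A further 63 genes were lower in lower-dose 2 than in lower-dose 1 by at least 1, as seen for Acta2 and Hp above. These sets and examples were chosen after the values were seen, and no cause was tested.

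Among unnamed brighter probes, 5 brighter probes had an unadjusted p under 0.001 and an adjusted p of 0.468, 4 lower and 1 higher at the lower dose.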
